A study of Mus musculus with 6 samples.

Results

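Collagen chain genes encode the subunits of collagen, the triple-helical protein that makes up most of the extracellular matrix of muscle. They were chosen by name, as every gene whose mouse symbol is Col, a number, the letter a and a number, and 44 of the 18089 genes in the deposited table met that rule. Their messenger RNA was measured by RNA sequencing in ischemic gastrocnemius, a calf muscle, from 3 male C57BL/6 *Gpr174*-/Y mice (the knockout, named GPR174-KO or gpr174 in the labels) and 3 male wild-type (WT) littermates of 8 to 10 weeks, all taken 7 days after hindlimb ischemia (HLI). In both groups the left femoral artery had been tied off and a segment removed, so operated muscle was compared with operated muscle, and neither uninjured muscle nor the opposite leg entered the comparison. *Gpr174*, an X-linked gene for a G protein-coupled receptor of lymphocytes, was lost in the whole animal, as its -/Y genotype states, and not in 1 chosen cell type. The comparison asked which collagen chains differed in muscle without the receptor.

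The 6 libraries were close in size, with 18417111 to 18695035 counts in WT and 19173067 to 19394504 in the knockout. At that depth 3 counts, the fewest taken as detectable, corresponded to 0.155 to 0.163 CPM, the unit of counts relative to library size. *Gpr174* itself was near the limit of detection, its counts being 8, 2 and 5 over the 3 WT replicates against 1, 0 and 0 over those of the knockout (log2 fold change -3.76, SE 0.99, adjusted p = 0.0176 in the edgeR fit without a filter on low counts). Levels below are CPM with TMM scaling, which sets the libraries to a common level for most genes, unless they are given as FPKM. FPKM are the deposited values, which divide by transcript length as well as library size and carry no TMM scaling. They are used wherever 1 collagen chain is compared with another. Levels in FPKM and shares of counts can therefore differ between groups otherwise than TMM-scaled CPM do. With scaling to total counts, the median log2 fold change of all genes tested was 0.28, against 0.00 with TMM. A gene was called different when edgeR's quasi-likelihood test gave a Benjamini-Hochberg adjusted p under 0.05 over the 14395 genes tested, and differences past both thresholds also had an absolute log2 fold change above 1. P-values measure the spread between these 6 samples and take them as independent muscles of different mice.

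Fibrillar collagens (types I, II, III, V, XI, XXIV and XXVII) assemble into the banded fibres that carry tension, and type V chains help to start those fibrils. Type IV chains form the sheet-like network of basement membranes, the layer that surrounds each muscle fibre and capillary, and type VI chains form beaded filaments beside it. Types VIII and X make network-like lattices, fibril-associated collagens with interrupted triple helices (FACIT; types IX, XII, XIV, XVI, XIX, XX and XXII) sit on the surface of fibrils, and the multiplexins XV and XVIII attach to basement membranes. The remaining chains are membrane-spanning (XIII, XVII, XXIII and XXV), form anchoring fibrils of skin (VII) or are less well placed (XXVI and XXVIII).

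Of the 44 chains, 41 had enough reads to be tested, and 22 were higher and 14 lower in the knockout. The share called over all genes tested was 27.0% higher and 27.6% lower, so about as many genes of the whole table moved each way, whereas among the chains more were higher than lower. Fibrillar, network and fibril-associated chains made up 15 of the 22 that rose, and 4 of the 5 type IV chains tested fell. Past both thresholds, 7 chains were higher (*Col5a1*, *Col8a1*, *Col8a2*, *Col12a1*, *Col16a1*, *Col25a1* and *Col27a1*) and 5 were lower (*Col4a3*, *Col4a4*, *Col6a5*, *Col6a6* and *Col22a1*), against 3.45% higher and 4.84% lower of all genes. The count of 7 fell to 2 without WT replicate 1, which left *Col8a1* and *Col12a1*, and rose to 12 with scaling to total counts. The count of 5 became 1 or 2 with limma on log2(FPKM + 1) or log2(FPKM + 0.1). In both of those FPKM fits the split was 21 higher and 7 lower, on the 32 chains with enough signal, and *Col4a5* was gained as higher. There *Col7a1* and *Col11a2* were no longer called, and the 5 scarcest of the lower chains were under the minimum FPKM.

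All 36 called chains were without overlap between the groups, 22 upward and 14 downward, and *Col6a4* was a further upward case, giving 23 and 14. Over all genes tested, 33.1% had every knockout library above every WT library and 32.5% the reverse, and the 14 of 41 downward chains were near that second share. A call with 3 libraries per group mostly requires separated groups, so the lack of overlap is no further evidence for a called chain. WT replicate 3 was the WT library nearest to the knockout mean for 31 of the 41 tested chains (75.6%, against 65.7% of all genes). Replicate 2 lay between replicates 1 and 3 for 35 of the 41 chains in WT and for 37 in the knockout, against 71.7% and 64.1% of all genes. Were genes to vary independently of each other, each replicate would lie in the middle about equally often. The labels give no reason for this order, its cause was not tested, and the p-values do not allow for it. When replicate 2 was left out of both groups, 0 chains were called by edgeR, although 16 higher and 11 lower had an unadjusted p under 0.05 and all 36 called chains kept their direction. The number called over all genes in that fit was not counted, so the 0 cannot be read as a result about collagen chains.

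*Col4a1* and *Col4a2*, both lower in the knockout, changed by similar amounts, and their promoters are printed because the genes start from 1 shared stretch of DNA and are read in opposite directions. The windows run from 250 bases before to 50 bases after the start in RefSeq on GRCm38.p6, each read on its gene's own strand, and the 78 bases that both windows contain are in capitals. The *Col4a1* window is chr8:11312777-11313076 on the minus strand and the *Col4a2* window is chr8:11312555-11312854 on the plus strand.
Col4a1: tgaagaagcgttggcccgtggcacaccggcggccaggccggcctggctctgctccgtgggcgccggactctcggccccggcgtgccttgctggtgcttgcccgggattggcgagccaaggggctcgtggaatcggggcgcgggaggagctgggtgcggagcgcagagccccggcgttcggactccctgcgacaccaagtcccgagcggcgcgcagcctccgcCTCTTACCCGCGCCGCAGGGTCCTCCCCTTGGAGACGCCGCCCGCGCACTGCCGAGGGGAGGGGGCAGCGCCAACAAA
Col4a2: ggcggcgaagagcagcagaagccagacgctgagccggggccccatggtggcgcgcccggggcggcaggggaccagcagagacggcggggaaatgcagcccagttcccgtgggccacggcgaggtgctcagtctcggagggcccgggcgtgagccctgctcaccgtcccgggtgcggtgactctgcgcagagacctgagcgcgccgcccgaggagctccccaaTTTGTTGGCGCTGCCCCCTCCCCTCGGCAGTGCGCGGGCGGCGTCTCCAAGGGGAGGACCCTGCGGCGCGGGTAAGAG
The promoters of *Col1a2* (chr6:4505368-4505667, plus strand) and *Col3a1* (chr1:45311288-45311587, plus strand) are shown for contrast, as the start sites of the most abundant fibrillar chains with a window in the table, with the letters CCAAT and TATAAA on either strand in capitals.
Col1a2: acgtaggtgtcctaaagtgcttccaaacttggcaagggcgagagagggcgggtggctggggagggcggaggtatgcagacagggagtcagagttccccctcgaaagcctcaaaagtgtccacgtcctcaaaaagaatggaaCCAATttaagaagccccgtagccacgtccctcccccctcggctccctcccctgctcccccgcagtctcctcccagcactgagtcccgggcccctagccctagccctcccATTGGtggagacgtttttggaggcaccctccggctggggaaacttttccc
Col3a1: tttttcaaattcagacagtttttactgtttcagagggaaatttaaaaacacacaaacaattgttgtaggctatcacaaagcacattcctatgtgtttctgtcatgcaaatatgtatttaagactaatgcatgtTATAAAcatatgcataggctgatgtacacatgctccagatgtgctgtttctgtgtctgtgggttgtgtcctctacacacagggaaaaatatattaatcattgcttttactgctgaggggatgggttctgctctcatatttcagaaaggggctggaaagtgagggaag
The *Col1a2* window holds 2 copies of CCAAT and the *Col3a1* window 1 copy of TATAAA.

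Promoter windows were found for 35 of the 44 chains, 38 windows in all. On either strand, CCAAT occurred in 34.2% of them against 37.4% of the 32851 windows of all genes, and TATAAA in 13.2% against 13.6%. The letters GGGCGG, known as a GC box, were in 60.5% of the collagen windows and 35.7% of all windows. GCGNGGGCG, the letters read by EGR1 and its relatives, which can overlap a GC box, were in 3 collagen windows, those of *Col4a1*, *Col4a2* and *Col8a1* (7.89% against 5.55%). The *Col4a1* and *Col4a2* matches are 1 and the same site, inside the 78 shared bases.

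By level, the chains covered a wide range. Averaged over the libraries, 32 had at least 1 FPKM, 17 at least 10 and 10 at least 100, while 13 had no more than 100 counts in any library. *Col1a1*, *Col1a2* and *Col3a1* alone supplied 61.1%, 64.1% and 67.1% of all collagen FPKM in the WT libraries (values are listed in the order of replicates 1 to 3 throughout) and 70.3%, 70.1% and 69.8% in those of the knockout. Collagen chains together took 2.02%, 2.39% and 2.94% of all counts in the WT libraries and 4.68%, 4.56% and 4.36% in the knockout libraries. Across the same libraries, 12 mature muscle fibre markers took 15.0%, 13.5% and 11.2% of counts in WT and 6.15%, 6.00% and 5.77% in the knockout. Within WT the collagen share was higher where the fibre marker share was lower, whereas within the knockout both shares were highest in replicate 1 and lowest in replicate 3. The highest WT library was below the lowest knockout library in both collagen measures.

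**Figure D1:**
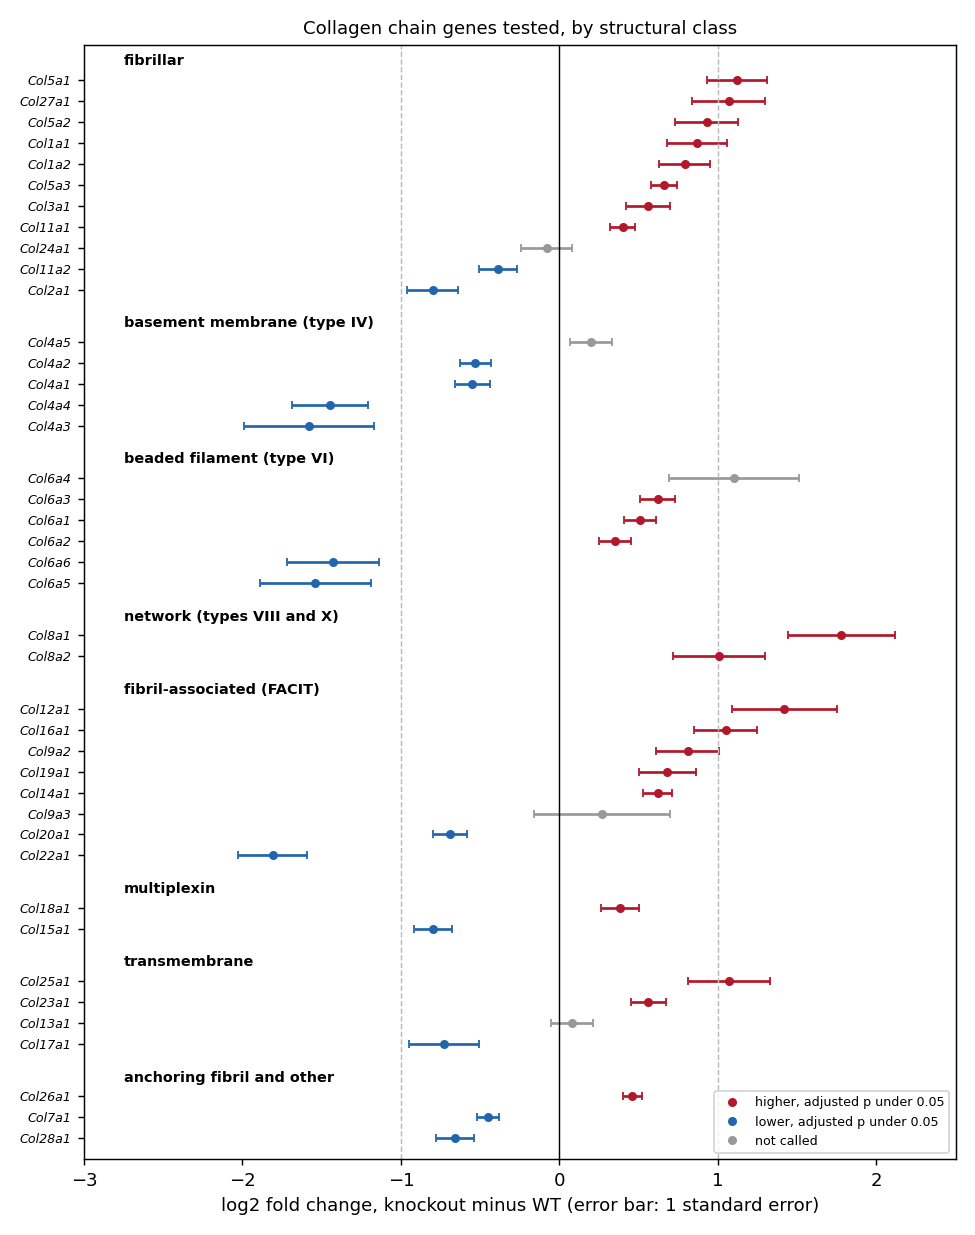
Log2 fold change (knockout minus WT, x axis) of each of the 41 tested collagen chains, grouped by structural class, with 1 standard error as the bar and dashed lines at an absolute change of 1. Fibrillar chains lie mostly to the right, 4 of the 5 type IV chains lie to the left, and the extremes are *Col8a1* at 1.78 and *Col22a1* at -1.81.

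Among fibrillar chains, 8 of 11 were higher, 2 lower and 1 was not called, and their median log2 fold change was 0.66 against 0.00 for all genes tested. *Col1a1*, the major chain of type I collagen, was at 4975, 6288 and 8118 CPM in WT and at 12490, 11870 and 10970 CPM in the knockout. Its groups did not overlap, and it was 1.82-fold higher in the knockout (6460 ± 1579 against 11780 ± 762.1, SD, n = 3; log2 fold change 0.87, SE 0.19, edgeR adjusted p = 0.00916). *Col1a2*, the partner chain, was at 3340, 3994 and 4894 CPM in WT and 7273, 7078 and 6807 CPM in the knockout. It was 1.73-fold higher (log2 fold change 0.79, SE 0.16, edgeR adjusted p = 0.00588), again without overlap.

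*Col3a1*, which forms thin fibrils together with type I, was at 5668, 6437 and 7481 CPM in WT and 10280, 9686 and 8841 CPM in the knockout. The difference was the smallest among the chains of types I, III and V (1.47-fold, log2 fold change 0.56, SE 0.14, edgeR adjusted p = 0.0158), and its call was lost without WT replicate 2, knockout replicate 1 or knockout replicate 2 (adjusted p up to 0.0657). The FPKM ratio of *Col1a1* to *Col3a1* was 0.823, 0.916 and 1.02 in WT and 1.14, 1.15 and 1.16 in the knockout. The ratio of *Col1a1* to *Col1a2* overlapped between groups, at 1.31 to 1.46 in WT and 1.42 to 1.51 in the knockout.

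Of the chains of types I, III and V, *Col5a1* had the largest difference. It was at 660.5, 864.9 and 1151 CPM in WT and 1989, 1958 and 1890 CPM in the knockout, so every knockout library was above every WT library (2.18-fold, log2 fold change 1.12, SE 0.19, edgeR adjusted p = 0.00363). *Col5a2* was at 555.6, 723.2 and 978.2 CPM in WT and 1472, 1431 and 1387 CPM in the knockout (1.90-fold, log2 fold change 0.93, SE 0.20, edgeR adjusted p = 0.00738). *Col5a3* rose less in size but with little spread (log2 fold change 0.66, SE 0.08, edgeR adjusted p = 0.0012). In FPKM, *Col5a1* relative to *Col5a2* stood at 0.939 to 0.953 in the 3 WT libraries and 1.08 to 1.09 in the 3 knockout libraries, and *Col1a1* relative to *Col5a1* at 9.87 to 10.6 and 8.12 to 8.78. Both ratios separated the groups, the first upward and the second downward in the knockout.

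*Col27a1*, a fibrillar chain best known from cartilage, was at 16.5, 24.6 and 33.8 CPM in WT and 54.8, 54.6 and 47.7 CPM in the knockout (log2 fold change 1.07, SE 0.23, edgeR adjusted p = 0.00771). The fibrillar chains that fell were both scarce, *Col2a1* from 1.70 ± 0.04 to 0.975 ± 0.119 CPM (SD, n = 3; log2 fold change -0.80) and *Col11a2* from 19.9 ± 2.5 to 15.1 ± 1.7 CPM (log2 fold change -0.39; without single libraries its adjusted p reached 0.0897, and its call was also lost with scaling to total counts and in both FPKM fits). *Col2a1* is the main cartilage collagen, and *Col11a2* is a partner of it. *Col11a1* was higher (log2 fold change 0.40), and *Col24a1* was not called (log2 fold change -0.08, which became 0.20 with scaling to total counts).

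**Figure D2:**
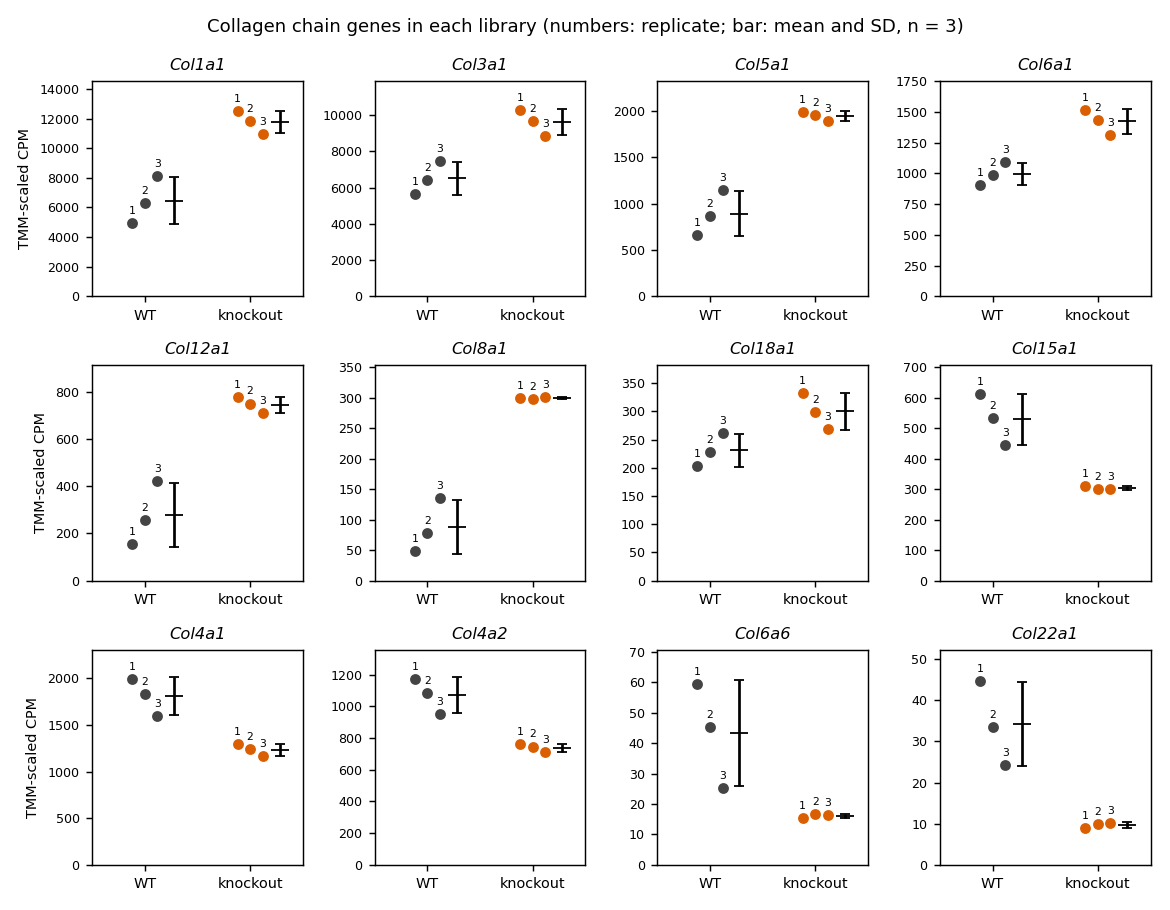
TMM-scaled CPM (y axes, each from 0) of 12 collagen chains in the 3 WT and 3 knockout libraries, numbered by replicate, with the mean and SD beside them. In all 12 the groups do not overlap, and WT replicate 3 is the WT library nearest to the knockout, as for *Col8a1* at 135 CPM against 298 to 300.5 CPM.

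Type IV chains of basement membrane moved the other way from most fibrillar chains, with 4 lower, 0 higher and 1 not called of the 5 tested (median log2 fold change -0.55). *Col4a1* was at 1993, 1833 and 1591 CPM in WT and 1293, 1240 and 1162 CPM in the knockout, 1.47-fold lower without overlap (log2 fold change -0.55, SE 0.11, edgeR adjusted p = 0.00581). *Col4a2*, read from the other side of the shared promoter, was at 1175, 1087 and 951.1 CPM in WT and 761.1, 746.8 and 710.8 CPM in the knockout (log2 fold change -0.53, SE 0.10, edgeR adjusted p = 0.0044). These chains form the ubiquitous type IV trimer with each other, and their FPKM ratio overlapped between groups, at 1.63 to 1.65 in WT and 1.59 to 1.66 in the knockout. With scaling to total counts the *Col4a1* change was -0.28 and the *Col4a2* change -0.26, both still lower. Of 10 endothelial markers, from cells that lay down this membrane, 9 were also lower, and the part of those cells in the type IV result was not tested.

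*Col4a3* and *Col4a4*, the neighbouring genes for chains of the specialised kidney-type network, were lower past both thresholds, from low levels. *Col4a3* was at 2.24, 1.79 and 0.843 CPM in WT and 0.430, 0.471 and 0.698 CPM in the knockout (log2 fold change -1.58, SE 0.41, edgeR adjusted p = 0.0161). Its call was lost without WT replicate 2, knockout replicate 1 or knockout replicate 2 (adjusted p up to 0.0588). *Col4a4* was at 2.99, 2.86 and 1.80 CPM in WT and 0.860, 0.895 and 1.02 CPM in the knockout (log2 fold change -1.45, SE 0.24, edgeR adjusted p = 0.00315). *Col4a5*, which belongs to the same network, overlapped between groups in CPM (log2 fold change 0.20, edgeR adjusted p = 0.234). In FPKM its groups did not overlap, at 1.53 to 1.91 in WT and 2.08 to 2.64 in the knockout. It was called higher with scaling to total counts (log2 fold change 0.48) and in both FPKM fits. *Col4a6* was not tested.

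Summed over each class, the fibrillar FPKM was 2398, 2977 and 3851 in WT and 6438, 6260 and 5972 in the knockout, and the type IV FPKM was 427.6, 408.3 and 374.1 in WT and 343.2, 337.9 and 325.9 in the knockout. The ratio of the sums was 5.61, 7.29 and 10.3 in WT and 18.8, 18.5 and 18.3 in the knockout. Fibrillar chains thus accounted for 66.6% to 73.8% of collagen FPKM in WT and 77.7% in each knockout library, and type IV chains for 7.16% to 11.9% and 4.14% to 4.24%. Being a ratio within each library, this comparison does not depend on how the libraries were scaled to each other. It shows an unequal change and not that either class stayed constant.

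**Figure D3:**
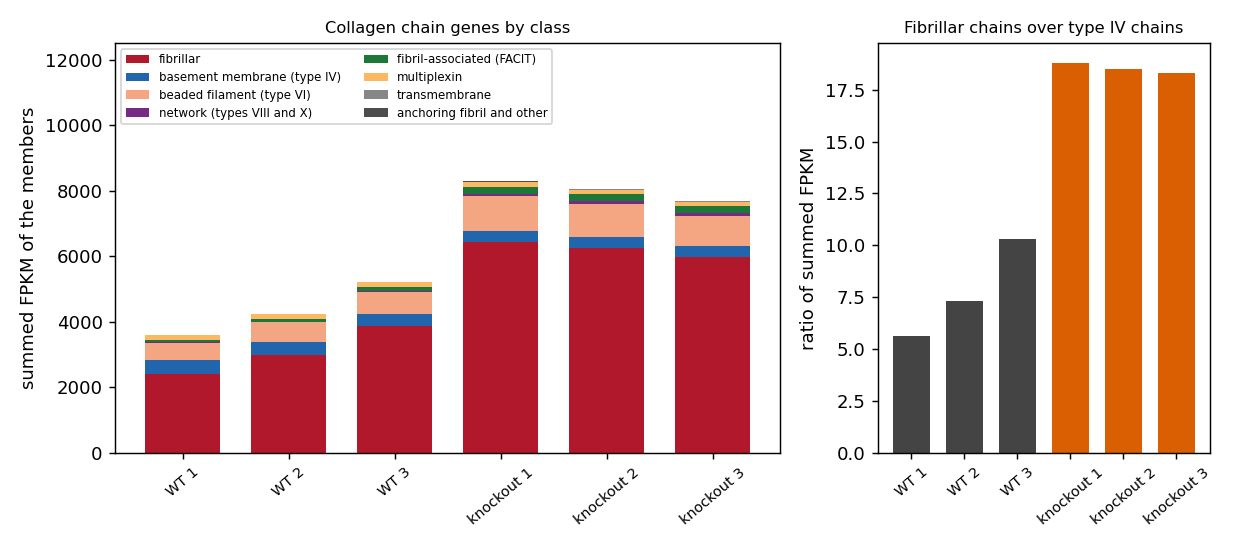
Left, summed FPKM of the collagen chains in each library, stacked by class. Right, the ratio of the fibrillar to the type IV sum, which lies between 5.61 and 10.3 in WT (grey) and between 18.3 and 18.8 in the knockout (orange).

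Type VI chains split into 2 sets. The classical chains *Col6a1*, *Col6a2* and *Col6a3*, which together build the beaded filament, were higher, and *Col6a5* and *Col6a6*, the later-described alternatives to *Col6a3*, were lower. *Col6a1* was at 909, 988.1 and 1091 CPM in WT and 1518, 1438 and 1313 CPM in the knockout (log2 fold change 0.51, SE 0.10, edgeR adjusted p = 0.00601). *Col6a2* was at 997, 1064 and 1152 CPM in WT and 1458, 1375 and 1254 CPM in the knockout (log2 fold change 0.35, SE 0.10, edgeR adjusted p = 0.021), a call lost without WT replicate 2, knockout replicate 1 or knockout replicate 2 (adjusted p up to 0.0815). *Col6a3* was at 876.8, 980.3 and 1116 CPM in WT and 1603, 1531 and 1432 CPM in the knockout (log2 fold change 0.62, SE 0.11, edgeR adjusted p = 0.00416). No library of 1 group reached the other in any of the 3, and the log2 fold changes were below those of the type I and type V chains, a difference that was not tested.

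*Col6a6* was at 59.6, 45.3 and 25.2 CPM in WT and 15.2, 16.6 and 16.4 CPM in the knockout, a 2.69-fold lower mean (log2 fold change -1.43, SE 0.29, edgeR adjusted p = 0.00622). *Col6a5* was at 5.85, 4.40 and 2.25 CPM in WT and 1.48, 1.46 and 1.30 CPM in the knockout (log2 fold change -1.54, SE 0.35, edgeR adjusted p = 0.00976). In both genes the WT libraries were spread widely and the knockout libraries were not, and WT replicate 3 came closest to the knockout. *Col6a4*, the neighbour of both, was at 0.187, 0.476 and 0.731 CPM in WT and 0.765, 1.04 and 1.26 CPM in the knockout, without overlap but also without a call (log2 fold change 1.10, adjusted p = 0.0569).

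Both type VIII network chains were higher, past both thresholds. *Col8a1*, which is known from vessel walls and remodelling tissue, was at 47.9, 78.6 and 135 CPM in WT and 300.2, 298.0 and 300.5 CPM in the knockout. It was 3.43-fold higher, the largest rise of any tested chain (log2 fold change 1.78, SE 0.34, edgeR adjusted p = 0.00496). *Col8a2* was at 12.5, 20.2 and 32.2 CPM in WT and 46.7, 44.0 and 40.3 CPM in the knockout (log2 fold change 1.01, SE 0.29, edgeR adjusted p = 0.0244), a call lost without WT replicate 2 or any 1 knockout replicate (adjusted p up to 0.0821). *Col8a1* relative to *Col8a2* in FPKM was 3.26 to 3.55 in WT and 5.43 to 6.32 in the knockout. *Col10a1*, the collagen of growth-plate cartilage, had too few counts to be tested.

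Of 8 fibril-associated chains tested, 5 rose, 2 fell and 1 was not called (median log2 fold change 0.65), the widest span of any class. *Col12a1*, which links fibrils and is found in tendon and healing tissue, was at 154.6, 258.2 and 423.9 CPM in WT and 776.2, 750.2 and 709.6 CPM in the knockout (2.67-fold, log2 fold change 1.42, SE 0.33, edgeR adjusted p = 0.0106). *Col16a1* was at 93.8, 128.6 and 173.3 CPM in WT and 287.3, 274.1 and 260.9 CPM in the knockout (2.08-fold, log2 fold change 1.05, SE 0.20, edgeR adjusted p = 0.00536). *Col14a1*, a close relative of *Col12a1*, was at 238.3, 263.8 and 299.1 CPM in WT and 420.7, 413.6 and 398.9 CPM in the knockout, a smaller rise with a smaller spread (log2 fold change 0.62, SE 0.09, edgeR adjusted p = 0.00218). In FPKM, *Col12a1* was below *Col14a1* in all 3 WT libraries (ratio 0.429, 0.649 and 0.947) and above it in all 3 knockout libraries (1.2, 1.18 and 1.17).

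*Col22a1*, the collagen of the junction between muscle fibre and tendon, showed the largest fall of any chain. It was at 44.7, 33.6 and 24.4 CPM in WT and 8.94, 9.98 and 10.3 CPM in the knockout, 3.51-fold lower without overlap (log2 fold change -1.81, SE 0.22, edgeR adjusted p = 0.00128). *Col20a1* also fell (log2 fold change -0.69). *Col9a2* and *Col19a1* rose by 0.81 and 0.68 on the log2 scale, the latter losing its call without WT replicate 2 (adjusted p = 0.0631), *Col9a3* overlapped between groups, and *Col9a1* was not tested.

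The multiplexins, whose cut ends include endostatin (from type XVIII), a fragment known to restrain vessel growth, went in opposite directions. *Col15a1*, found in the basement membranes of muscle and capillaries, was at 611.1, 532.3 and 445.0 CPM in WT and 311.7, 300.7 and 300.0 CPM in the knockout (log2 fold change -0.80, SE 0.12, edgeR adjusted p = 0.0021). *Col18a1* was at 202.6, 228.4 and 262.0 CPM in WT and 332.8, 299.0 and 268.1 CPM in the knockout (log2 fold change 0.38, SE 0.12, edgeR adjusted p = 0.0324). The *Col18a1* call was lost without WT replicate 1, WT replicate 2, knockout replicate 1 or knockout replicate 2 (adjusted p up to 0.107). In FPKM the ratio of *Col18a1* to *Col15a1* was 0.324, 0.421 and 0.581 in WT and 1.05, 0.982 and 0.883 in the knockout, so the groups did not overlap.

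Membrane-spanning and remaining chains were less abundant, none reaching a mean of 10 FPKM in either group. *Col25a1*, a transmembrane collagen that developing muscle needs for its motor nerve supply, was at 0.436, 0.655 and 0.731 CPM in WT and 1.00, 1.41 and 1.44 CPM in the knockout (log2 fold change 1.07, SE 0.26, edgeR adjusted p = 0.0129), a call lost without knockout replicate 2 (adjusted p = 0.0541). *Col23a1* rose (log2 fold change 0.56) and *Col17a1*, a hemidesmosome collagen of skin, fell (-0.73), a call that leaving out single libraries ended (adjusted p up to 0.0822). *Col13a1*, which has a role at the neuromuscular synapse, overlapped between groups (log2 fold change 0.08, adjusted p = 0.619). *Col26a1* rose by 0.46, and *Col7a1* and *Col28a1* fell by 0.45 and 0.66 on the log2 scale. The *Col7a1* call was lost with scaling to total counts (log2 fold change -0.18, adjusted p = 0.154) and in both FPKM fits (adjusted p up to 0.201). Keratinocyte markers summed to 0.00232% to 0.00439% of counts, with *Krt5*, *Krt14* and *Dsg3* too scarce to test and neither of the 2 tested markers called.

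Chains need enzymes and chaperones to become stable helices, and most of those genes were higher as well. In a list of 20 genes for collagen modification and folding, all tested, 14 were higher, 3 lower and 3 not called (median log2 fold change 0.56). The largest rises were *P4ha3*, a prolyl 4-hydroxylase subunit (log2 fold change 1.40), *Plod2*, the lysyl hydroxylase for cross-linking sites (1.12), and *Fkbp10*, a collagen chaperone (0.84), while *P3h2*, a prolyl 3-hydroxylase, fell by 0.80 on the log2 scale. Of 12 genes tested for procollagen processing and cross-linking, 9 were higher and 0 lower (median 0.50). They included the lysyl oxidases *Lox* (1.63), *Loxl3* (1.32) and *Loxl2* (0.90) and the procollagen-cutting protease *Adamts14* (1.22). Among 10 tested receptors and uptake genes, 5 were higher and 3 lower (median 0.28), with *Lair1* and *Mrc2* each 0.78 higher and the integrin subunit *Itga10* 0.63 lower, and of the 3 lower genes *Itga1* changed sign with scaling to total counts (-0.20 to 0.07). Over all genes tested 27.0% were higher and 27.6% lower, so the 3 of 10 lower receptors were near the share of all genes.

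**Figure D4:**
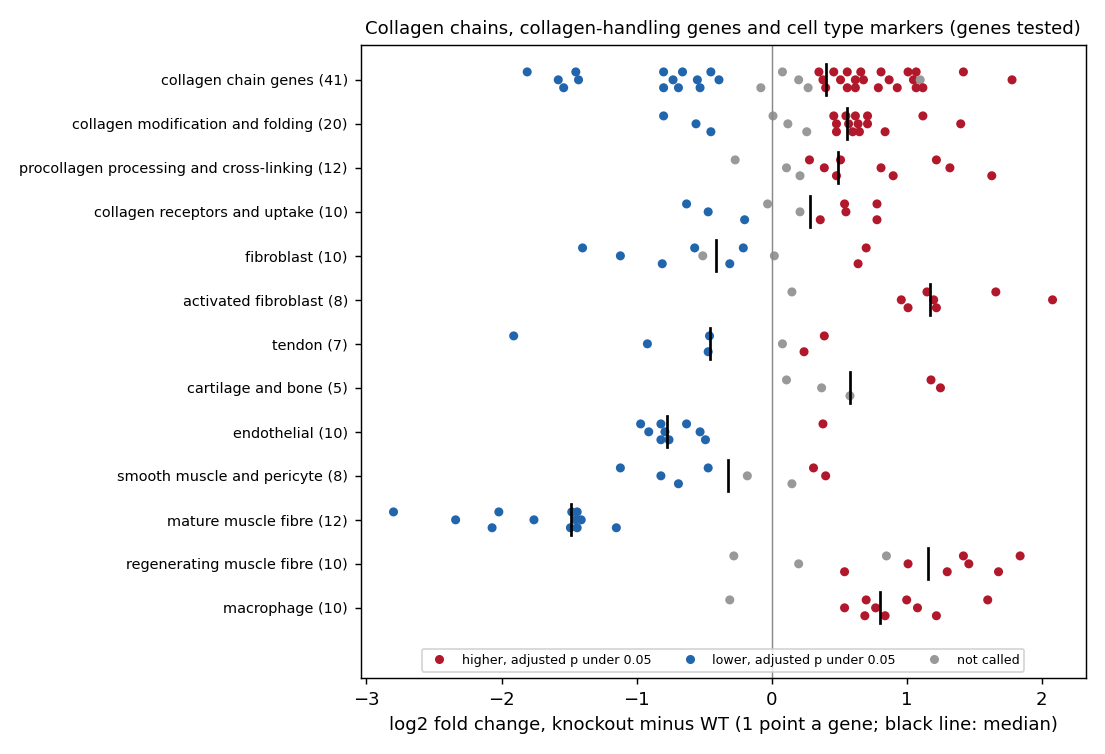
Log2 fold change (knockout minus WT, x axis) of the tested genes in the collagen list, in the lists for collagen handling and in the cell type marker lists, 1 point per gene, with the median as a black line. Medians range from -1.48 for mature muscle fibre markers to 1.17 for activated fibroblast markers.

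Markers of several cell types moved with the collagen chains, and their part in the collagen results was not tested. The marker counts stand beside 27.0% higher and 27.6% lower over all genes tested. In bulk muscle, fewer cells of a type and less RNA per cell cannot be told apart. Mature muscle fibre markers were lower for 12 of 12 genes, all past both thresholds (median log2 fold change -1.48; *Myh2* -2.80, *Pvalb* -2.34), with the shares of counts given above. The muscle label was therefore borne out by abundant fibre transcripts in every library. Regenerating fibre markers were higher for 7 of 10 genes and lower for 0 (median 1.16; *Mymx* 1.84, *Chrng* 1.68). The others, *Myh3* (0.85, edgeR adjusted p = 0.124), *Myh8* (0.20) and *Actc1* (-0.28), were not called. Macrophage markers were higher for 9 of 10 and lower for 0 (median 0.80; *Itgam* 1.60, *Cd68* 1.22).

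Markers of activated fibroblasts, the main matrix-secreting cells of injured tissue, were higher for 7 of 8 genes (median log2 fold change 1.17; *Tnc* 2.08, *Lrrc15* 1.66, *Cthrc1* 1.22, *Acta2* 1.2) and made up 0.300%, 0.450% and 0.679% of counts in WT and 1.26% to 1.32% in the knockout. General fibroblast markers were higher for 2 of 10 and lower for 6, of which *Pdgfra* changed sign with scaling to total counts (-0.21 to 0.07; median of the list -0.41; *Scara5* -1.40, *Pi16* -1.12, *Lum* -0.81). Their summed share of counts, which is not TMM-scaled, overlapped between groups (0.190% to 0.213% in WT, 0.194% to 0.196% in the knockout). Their summed TMM-scaled CPM did not overlap, at 2179 to 2233 in WT and 1731 to 1817 in the knockout. Endothelial markers, beside the lower *Col4a1*, *Col4a2* and *Col15a1*, were lower for 9 of 10 (median -0.78; *Cldn5* -0.97, *Kdr* -0.91), *Vwf* being higher at 0.38. They took 0.106% to 0.114% of counts in WT and 0.0783% to 0.0858% in the knockout.

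Tendon markers, beside *Col12a1* and *Col22a1*, were higher for 2 of 7 (*Thbs4* 0.39, *Scx* 0.24), near the 27.0% of all genes. They were lower for 4 (median log2 fold change -0.46; *Kera* -1.91, *Tnmd* -0.92). Their summed share of counts, which is not TMM-scaled, was 0.0819% to 0.107% in WT and 0.124% to 0.132% in the knockout. In TMM-scaled CPM, which do not divide by transcript length, most of the sum was *Thbs4*. It had 612.8 to 831.6 of 938.5 to 1125 CPM in WT and 929.4 to 947.3 of 1150 to 1178 CPM in the knockout. Of 5 tested cartilage and bone markers, 2 were higher (*Runx2* 1.25, *Sox9* 1.18) and 0 lower, and *Matn1*, *Bglap* and *Ibsp* had no more than 10 counts in any library. Smooth muscle and pericyte markers were higher for 2 of 8 (*Pdgfrb* 0.4, *Cspg4* 0.31) and lower for 4 (median -0.32; *Kcnj8* -1.12).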

How the data were processed

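RNA from ischemic gastrocnemius of 3 WT and 3 *Gpr174*-/Y mice was sequenced on a BGISEQ-500 (library kit in the labels: TruSeq). The authors deposited estimated counts (expected counts) per RefSeq transcript, without normalization, and also deposited FPKM and TPM for each library. The submitters' processing notes name HISAT2 2.0.4, Bowtie2 2.2.5, RSEM 1.2.12 and GRCm39, and strand use is not given in the sources used here. TPM and the authors' group means were not used.

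Expected counts of 58843 transcripts were summed by Entrez identifier and rounded (18089 genes, 99.7% with a symbol; 154 transcripts belong to the collagen chains), and FPKM were summed likewise. Genes were tested with edgeR 4.0.16 in R 4.3.3 (TMM scaling, filterByExpr, quasi-likelihood F-test with the robust option, no covariates) at an adjusted p of 0.05 and, for both thresholds, an absolute log2 fold change above 1, as in the study. SE was the log2 fold change divided by the square root of F. The filter removed *Col4a6*, *Col9a1* and *Col10a1*, and *Gpr174* and other unfiltered values come from the same fit without it. An exact permutation test of 3 samples against 3 cannot go below p = 0.1, so none was run. The scripts were tested on simulated data.

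Values per library are given for chains past both thresholds and for types I, III, IV (a1, a2), V (a1, a2), VI (a1 to a3), VIII, XII, XIV, XV and XVIII, with other chains by count, class and, for class extremes and contrasts, single values. *Col6a4* per library was chosen after its values were seen. From each pathway or marker list at most 4 called genes with the largest changes are named. Added after their values were seen were *Vwf*, *Itga1*, *Pdgfra*, *Myh3*, *Myh8*, *Actc1*, *Scx*, *Thbs4*, *Pdgfrb*, *Cspg4* and the markers too scarce to test. Lists covered modification and folding, processing and cross-linking, receptors, and markers of fibroblasts, activated fibroblasts, tendon, cartilage and bone, endothelium, smooth muscle and pericytes, mature and regenerating fibres, macrophages and keratinocytes. A further marker list is not reported here. The members and lists were chosen with earlier results of these data known.

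Alternatives were other scalings (DESeq2-style size factors, upper quartile, total counts), DESeq2 1.42.0, limma 3.58.1 (voom, and log2 of FPKM plus 1 or 0.1), other filters, a replicate block, and fits leaving out libraries. Promoter windows are RefSeq's on GRCm38.p6, whereas the files use GRCm39, so coordinates are given for those windows and for no gene.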

Additional observations from a re-analysis of the deposited data

How the results depend on the processing

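Between them, the alternatives gave 679 comparisons of single chains with the values above, of which 596 kept their side of the threshold, 76 lost the call (36 of them with replicates 1 and 3 only) and 7 gained it. Of the called chains, 0 comparisons changed sign. Of the uncalled chains 5 did, 4 for *Col24a1* (-0.08 to 0.20 with total counts, 0.09 without WT replicate 1, and 0.14 and 0.19 with the FPKM fits) and 1 for *Col9a3* (0.27 to -0.15 without knockout replicate 1). With replicates 1 and 3 of each group only, the counts were 0 higher, 0 lower, and 0 and 0 past both thresholds. The unadjusted p was under 0.05 for 16, 11, 6 and 4, the lowest adjusted p was 0.0542, and this fit rests on 4 libraries. The highest adjusted p over the alternatives was also 0.0542 for *Mb* and *Lum*, so genes outside the collagen list lost their call too. Scaling to total counts shifted the median of all genes by 0.28 on the log2 scale and gave 24 higher and 11 lower, with 12 higher past both thresholds, and lost *Col7a1*, *Col11a2* and *Col17a1* while gaining *Col4a5* and *Col6a4*. Limma on log2(FPKM + 1) gave 7 lower and 1 lower past both thresholds, and with FPKM + 0.1 it gave 7 and 2, on 32 chains tested. Both of these fits gained *Col4a5* as higher. Leaving out each library in turn gave 17 to 23 higher, 11 to 15 lower, 2 to 10 higher past both thresholds and 4 to 5 lower past both, where the lowest count of 2 came without WT replicate 1. In all 6 of these fits 27 of the 36 called chains kept an adjusted p under 0.05, and the 9 that did not were *Col3a1*, *Col4a3*, *Col6a2*, *Col8a2*, *Col11a2*, *Col17a1*, *Col18a1*, *Col19a1* and *Col25a1*. The replicate block gave 20 higher and 12 lower, with 8 and 5 past both thresholds, lost *Col3a1*, *Col6a2*, *Col11a2*, *Col17a1* and *Col18a1* and gained *Col6a4*. Same-numbered samples are different mice, and over all genes tested their deviations from the group means did not go together (correlations 0.016, -0.029 and -0.008). Such correlations cannot exclude that equal numbers mark something shared whose effect differs between the groups. The cause of these changes was not tested. Depth limits the 13 chains with no more than 100 counts in any library.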

Other observations

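Transcript models within a gene moved unequally in a few chains, as estimated by the authors' software from reads that the models share. The longer of the 2 main *Col12a1* transcripts held 50.7%, 50.4% and 49.0% of the gene's FPKM in WT and 55.7%, 54.4% and 52.4% in the knockout. For *Col15a1*, the main transcript held 75.7%, 75.1% and 75.2% in WT and 72.9%, 70.3% and 70.1% in the knockout. The main *Col5a1* transcript held 77.3%, 65.1% and 62.1% in WT and 60.3%, 57.5% and 58.8% in the knockout. In these 3 genes the groups did not overlap. For *Col18a1*, the main transcript held 93.4% to 95.2% in WT and 93.1% to 95.5% in the knockout, so the groups overlapped. These shares were not tested, and the 4 genes were chosen after their values were seen.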
